A study of Mus musculus with 6 samples.

Results

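The Arf exchange factors of the PSD, IQSEC and cytohesin families were described across 6 arrays of mouse retina. The set holds 9 genes (Psd, Psd2, Psd3, Psd4, Iqsec1, Iqsec3, Cyth1, Cyth2 and Cyth3), found as 10 of the 41345 probe sets on the array, each annotated with 1 of these symbols and no other. The set was chosen by the log2 difference of Psd2 between knockout and wildtype on these same arrays, one of the largest rises measured, and the others were taken as its relatives. The difference between genotypes in these genes is therefore given as a description. Their standard errors, intervals and calls come from the fit over all genes and support no claim about the set. Iqsec2 and Cyth4, further members of the same families, were not in the set and are given with the other pathway genes.

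Arf GTPases are small switches of membrane traffic, and they are turned on by exchange factors that share a Sec7 domain, which swaps bound GDP for GTP. The PSD and IQSEC proteins act mainly on Arf6 at the plasma membrane, where they shape endocytosis and the actin cytoskeleton, and in neurons several of them sit at postsynaptic sites. Cytohesins are recruited to membranes by phosphoinositides, which their PH domain binds. GTPase-activating proteins switch the Arf off again.

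The knockout group was 3 male mice of genotype Chx10Cre+/-;Atrx flox/y, and the wildtype group 3 male littermates of genotype Chx10Cre-/-;Atrx flox/y, all at postnatal day 17. Both groups carry the floxed allele of the X-linked chromatin remodeller Atrx, and only the knockout group carries Cre, so an effect of the transgene and one of losing Atrx cannot be told apart. The Chx10 promoter is active in retinal progenitors, and each sample was the whole retina of both eyes, so cells without Cre activity are in the same RNA. By the series' design text, amacrine and horizontal cell loss peaks at this age. In whole tissue, fewer cells of a type and less RNA per cell cannot be told apart.

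Array medians lay between 5.57 and 5.64 on the log2 scale, and the correlation between any 2 arrays over the 15619 tested genes lay between 0.975 and 0.993 (Pearson). Markers of rods and Muller glia were bright: the mean log2 value of 5 tested rod markers ran from 11.78 to 11.87, and that of 6 Muller glia markers from 10.04 to 10.17. Atrx had log2 values of 8.42, 8.72 and 8.33 on the knockout arrays and 9.04, 8.86 and 9.17 on the wildtype arrays, without overlap and without passing the threshold (log2 difference -0.53, SE 0.12, limma adjusted p = 0.115). The mean of 7 tested amacrine markers was lower in every knockout (6.96 to 7.34) than in every wildtype (7.69 to 7.80). Their log2 differences were uneven, from -1.56 for Slc5a7 to -0.20 for Tfap2a, and the groups of Gad2 and Tfap2a overlapped. Of these markers 3 were called (Chat, Gad1 and Slc5a7). Chat and Slc5a7 were dim, with knockout means of 5.73 and 5.46. That of 6 horizontal cell markers was also lower (7.24 to 7.49 against 7.54 to 7.57), with none of them called. Prox1 and Onecut1 had log2 differences of -0.40 and -0.38, and the other horizontal cell markers lay between -0.13 and 0.02. The mean of 6 ciliary epithelium markers was 8.30 to 8.57 against 8.62 to 8.67, with Best2 the called marker among them (log2 difference -1.20, limma adjusted p = 0.010) and the others between -0.19 and 0.26. Knockout 2 and wildtype 1 stood apart by lens RNA, with a mean of 10.10 and 11.24 over 8 lens markers against 5.52 on knockout 1, 5.999 on knockout 3, and 5.47 and 5.70 on wildtype 2 and 3. Pigment epithelium markers varied from 8.64 to 9.27 in knockout and from 8.55 to 9.50 in wildtype.

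Psd2 was higher in every knockout than in every wildtype retina. Psd2 encodes an Arf6 exchange factor of the PSD family. Its probe set, 17349607, had log2 values of 8.48, 8.96 and 9.18 on knockout 1, 2 and 3, and of 7.74, 7.68 and 7.69 on wildtype 1, 2 and 3. The lowest knockout value lay 0.73 log2 units above the highest wildtype value. The group means were 8.87 ± 0.36 and 7.70 ± 0.03 (SD, n = 3 each), a log2 difference of 1.17 (SE 0.16, 95% interval 0.80 to 1.53), or 2.24-fold. Of the 15619 genes tested, 13 had a larger positive difference.

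The wildtype values of Psd2 were almost level, spanning 0.06 log2 units, while the knockout values spanned 0.70. The SD of Psd2 among the knockout arrays exceeded that of 96.4% of the tested genes, and its SD among the wildtype arrays exceeded that of 12.5%. Knockout 1 had the lowest value. It was also the lowest of the 3 knockouts for 20 of the 75 genes called higher in knockout, whereas knockout 3, the highest for Psd2, was the lowest for 34 of them. The position of Psd2 on single knockout arrays was thus not that of most called risers. Knockout 2, one of the lens-rich arrays, lay between the other knockouts for Psd2, and wildtype 1, the other one, was within 0.06 of the remaining wildtype arrays. Without both lens-rich arrays the log2 difference was 1.14, close to that over 6 arrays.

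**Figure D1:**
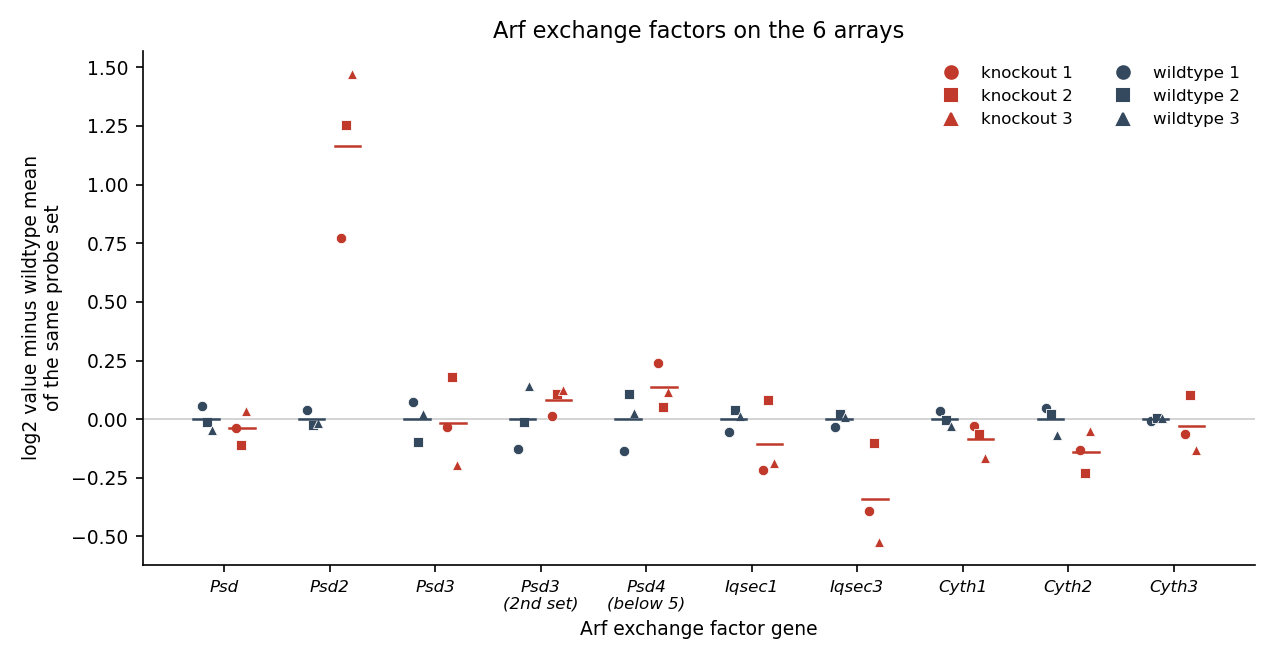
Log2 value of each exchange factor probe set on each array, minus the wildtype mean of the same probe set, with knockout arrays in red, wildtype arrays in dark blue, replicate number by marker shape and group means as bars. Psd2 lies 1.17 above its wildtype mean on average, Iqsec3 lies below at -0.34, and most points of the other genes lie within a much narrower band around 0.

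In all, 8 of the 9 genes were bright enough to be tested, that is, with a log2 value of at least 5 on at least 3 arrays. In limma's test over all genes, at a Benjamini-Hochberg adjusted p under 0.05, 1 of these 8 was called, Psd2, upward, against 0.826% of all tested genes called either way and 0.480% called upward. Nothing is read from that count, since Psd2 was chosen for this difference. The call was lost without knockout 2, wildtype 1, wildtype 2 or wildtype 3, each left out alone, and without both lens-rich arrays, while the log2 difference stayed between 1.01 and 1.36 over all single omissions. Without knockout 1, the lowest knockout, the difference was 1.36 (SE 0.095).

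The other genes of the PSD family had small differences. Psd, the founding member of the family and a neuronal Arf6 exchange factor, had log2 values of 9.24, 9.16 and 9.31 in knockout and 9.33, 9.26 and 9.23 in wildtype. The groups overlapped, and the log2 difference was -0.04 (SE 0.076, 95% interval -0.21 to 0.14). Psd3, another neuronal member, had 7.39, 7.60 and 7.23 in knockout and 7.50, 7.33 and 7.45 in wildtype on its brighter probe set. These also overlapped, with a log2 difference of -0.02 (SE 0.11, 95% interval -0.26 to 0.23). The second probe set of Psd3 was dimmer, from 5.23 to 5.50 over the 6 arrays, and its log2 difference was 0.08.

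Psd4, an exchange factor known mostly from epithelial and immune cells, was below 5 on all 6 arrays. Its log2 values were 4.64, 4.46 and 4.52 in knockout and 4.27, 4.51 and 4.43 in wildtype. The groups overlapped, and Psd4 was not tested. At this brightness background signal makes up much of the value, so a difference would be compressed.

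Iqsec3 had the largest difference after Psd2, in the other direction. It encodes an exchange factor of inhibitory synapses that binds gephyrin, the scaffold of GABA and glycine receptors. Its probe set, 17470515, had log2 values of 8.57, 8.86 and 8.44 in knockout and 8.93, 8.99 and 8.97 in wildtype. The groups did not overlap, but knockout 2 lay only 0.07 below the lowest wildtype value. The means were 8.62 ± 0.21 and 8.96 ± 0.03 (SD, n = 3 each), a log2 difference of -0.34 (SE 0.11, 95% interval -0.59 to -0.09), and the gene was not called. The mean of the amacrine markers on the same knockout arrays was 7.09, 7.34 and 6.96, and on the wildtype arrays 7.69, 7.73 and 7.80. Knockout 2 was thus the highest and knockout 3 the lowest of the knockouts in both. This order is not particular to amacrine markers. The marker means of bipolar cells, ganglion cells and Muller glia had it too, and those of the other lists did not. Over all tested genes, knockout 2 was the highest of the knockouts for 40.7%. The part of amacrine markers in the Iqsec3 difference was not tested.

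For orientation, the bases before the RefSeq start of Iqsec3 are shown, the member next to Psd2 in size of difference. The window covers 250 bases at chr6:121473679-121473928 (GRCm38.p6, minus strand), with CpG dinucleotides in capitals, the bases that DNA methylation acts on. The arrays measured RNA, so no value here bears on methylation or binding in this window.
Iqsec3 promoter: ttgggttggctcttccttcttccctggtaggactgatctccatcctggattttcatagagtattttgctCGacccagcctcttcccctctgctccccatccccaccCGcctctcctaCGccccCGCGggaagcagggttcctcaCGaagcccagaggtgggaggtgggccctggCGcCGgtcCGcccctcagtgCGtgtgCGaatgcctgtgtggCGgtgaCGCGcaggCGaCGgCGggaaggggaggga
It holds 17 CpG dinucleotides, more than 76.5% of the 32851 RefSeq windows of that length, whose median is 6. Promoter entries were found for Psd, Psd4, Iqsec1, Iqsec3, Cyth1, Cyth2 and Cyth3, and not for Psd2 and Psd3. Over the full 300-base windows of these 7 genes, CpG counts ran from 3 at one Psd4 start to 35 at one Cyth1 start, against a median of 7 over all RefSeq windows of that length. The letters TATAAA were in none of these windows on either strand, against 13.6% of all RefSeq windows of that length. A match or its absence is a description of these letters only.

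Iqsec1, an exchange factor of excitatory synapses and of integrin traffic, had log2 values of 8.44, 8.74 and 8.47 in knockout and 8.60, 8.70 and 8.67 in wildtype. Knockout 1 and 3 lay below every wildtype value and knockout 2 lay above them. The log2 difference was -0.11 (SE 0.097, 95% interval -0.33 to 0.11). Without knockout 2 and wildtype 1 it was -0.23, with neither fit calling the gene.

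The cytohesin genes differed little between genotypes. Cyth1 had log2 values of 6.89, 6.85 and 6.75 in knockout and 6.95, 6.91 and 6.89 in wildtype, and Cyth2, which is widely expressed in brain, had 9.01, 8.92 and 9.09 against 9.19, 9.17 and 9.08. The groups of Cyth1 did not overlap, by a margin of 0.0011, and those of Cyth2 did. Their log2 differences were -0.09 (SE 0.075) and -0.14 (SE 0.080). Cyth3, a cytohesin with high preference for the lipid product of phosphoinositide 3-kinase, had 7.99, 8.16 and 7.93 in knockout and 8.05, 8.06 and 8.06 in wildtype. Its groups overlapped, with a log2 difference of -0.03 (SE 0.083, 95% interval -0.22 to 0.16).

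Among the 8 tested genes the groups did not overlap for 3 (Psd2, Iqsec3 and Cyth1). Over all tested genes this held for 20.3% either way, 10.7% with knockout higher and 9.58% with knockout lower. Psd2 was chosen for its difference, so its gap was given in advance, and the groups of Cyth1 were apart by 0.0011 only. Nothing is read from this count. The 7 other than Psd2 all had negative differences, from -0.02 for Psd3 to -0.34 for Iqsec3, and none was called. The median over the 8, Psd2 included, was -0.06, against 0.00 over all tested genes. The signs of Psd, Psd3 and Cyth3 were not stable: 5 of the 7 were negative without knockout 3, and 6 of 7 without wildtype 1, without both lens-rich arrays or where the probe sets of a gene were averaged. Knockout 2 was the highest of the knockouts for 4 of the 8 genes (Psd3, Iqsec1, Iqsec3 and Cyth3), and over all tested genes it was the highest for 40.7%.

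No gene next to Psd2 on its chromosome shared its difference. In RefSeq gene order, taken from GRCm38.p6 for order only, the 5 tested genes on one side were Cxxc5, Ube2d2a, Sting1, Ecscr and Dnajc18, and those on the other were Nrg2, 4930471G03Rik, Cystm1, Pfdn1 and Hbegf. Their log2 differences ran from -0.15 for Nrg2 to 0.23 for Ube2d2a, with a median of -0.01. None of the 10 was called by limma (lowest adjusted p = 0.363), and 1, Ube2d2a, had an unadjusted p under 0.05. Over all tested genes 0.826% were called either way and 13.5% had an unadjusted p under 0.05, so nothing is read from these counts. Ube2d2a, a ubiquitin-conjugating enzyme, had means of 9.92 ± 0.15 and 9.69 ± 0.10 (SD, n = 3 each). Cxxc5, a CpG-binding zinc finger protein that lies nearest on its side, was at -0.05 (SE 0.088, adjusted p = 0.850). Nrg2, which encodes the growth factor neuregulin 2 and lies nearest on the other, was at -0.15 (SE 0.076, adjusted p = 0.449), and its groups did not overlap. The array's own coordinates were not used here.

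**Figure D2:**
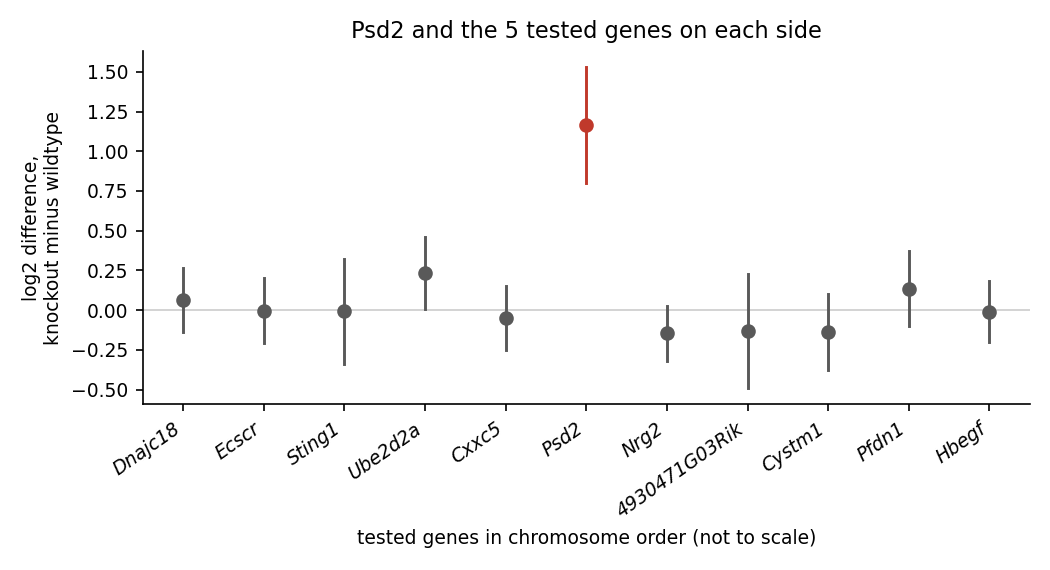
Log2 difference, knockout minus wildtype, of Psd2 (red) and the 5 tested genes on each side of it in chromosome order, with 95% intervals from limma and n = 3 per group. Psd2 is at 1.17 and its neighbours lie between -0.15 and 0.23.

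The genes whose centred profiles over the 6 arrays lay closest to that of Psd2 were Zfp949, Cdcp3, Kif19a, Wdr66, Zfp472, Rnf123, Apela and Abcd4. Closeness is the Euclidean distance between log2 values after each gene was centred on its own mean, and it ran from 0.41 for Zfp949 to 0.70 for Abcd4. Zfp949, a zinc finger gene, had log2 values of 8.20, 8.46 and 8.36 in knockout and 7.08, 7.20 and 7.23 in wildtype, a log2 difference of 1.17. In the other 7 genes the log2 difference ran from 0.82 for Zfp472 to 1.34 for Abcd4. The likeness comes mostly from the gap between genotypes, and the order of the knockout arrays differs. Psd2 had knockout 3 as its highest array, whereas Zfp949, Cdcp3, Kif19a, Zfp472, Rnf123 and Abcd4 had knockout 2, and Wdr66 and Apela had knockout 1.

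**Figure D3:**
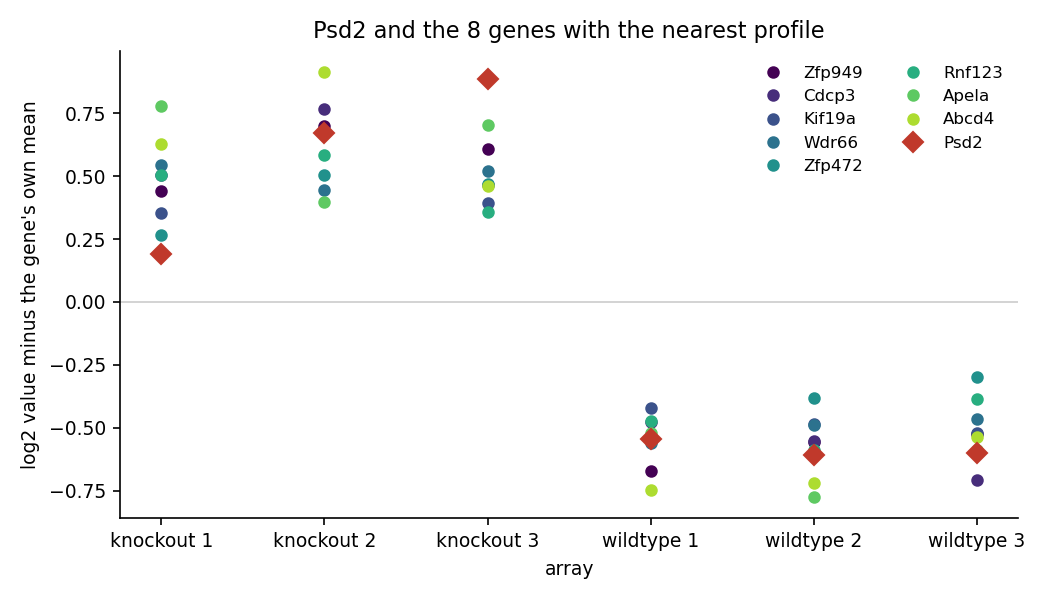
Log2 value on each array minus the gene's own mean over 6 arrays, for Psd2 (red diamonds) and the 8 genes nearest to it (circles). All 9 genes are above 0 on the knockout arrays and below 0 on the wildtype arrays, and Psd2 is the lowest of them on knockout 1 and the highest on knockout 3.

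The Arf GTPases, the substrates of these factors, did not differ detectably. None of the 6 was called by limma, and none had an unadjusted p under 0.05 (list median of log2 differences 0.02). Over all tested genes these shares were 0.826% and 13.5%, so nothing is read from the counts in so short a list. Arf6, the main substrate of the PSD family, had means of 7.45 ± 0.10 in knockout and 7.39 ± 0.07 in wildtype (SD, n = 3 each), a log2 difference of 0.06 (SE 0.084, 95% interval -0.13 to 0.25, adjusted p = 0.789). Arf3, the gene with the smallest p of the list, was at -0.09 (adjusted p = 0.646), Arf5 at 0.14 (0.738) and Arf4 at 0.02 (0.936). The sign of Arf6 turned in 1 of 16 alternatives, to -0.07 where the probe sets of a gene were averaged, and that of Arf4 turned in 5.

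Other Sec7 exchange factors were not called either, 0 of 8, with no unadjusted p under 0.05. The shares over all tested genes were 0.826% and 13.5%, and nothing is read from these counts. They include Gbf1 and the Arfgef genes, which act on Arf at the Golgi. Gbf1 was at -0.17 (SE 0.081, adjusted p = 0.417), without overlap of its groups, Arfgef1 at 0.11 (0.634) and Arfgef3, a relative of the Golgi factors, at -0.11 (0.669). The relatives outside the set, Cyth4 and Iqsec2, had log2 differences of 0.09 (adjusted p = 0.644) and -0.01 (0.959). Iqsec2 encodes an exchange factor of excitatory synapses.

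Agap2 fell, the only call among 70 tested pathway genes outside the set, against 0.826% of all tested genes called either way. Nothing is read from that count. Agap2 encodes a brain-enriched GTPase-activating protein for Arf that also has a GTPase-like domain. Its log2 values were 7.71, 7.76 and 7.74 in knockout and 8.08, 8.19 and 8.16 in wildtype, with a narrow spread inside each group and a gap between them. The log2 difference was -0.41 (SE 0.072, limma adjusted p = 0.0487), a 1.33-fold difference seen in 3 of 3 knockouts. The call was lost with each of the 6 arrays left out in turn (adjusted p from 0.066 to 0.252), and with dim probe sets kept in (0.129), arrays centred on their median (0.065) or without both lens-rich arrays (0.152). Its log2 difference stayed between -0.46 and -0.39 over 16 alternatives.

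Among all 21 tested GTPase-activating proteins, 1 was called lower and 0 higher, against 0.346% and 0.480% of all tested genes. At an unadjusted p under 0.05 there were 6 lower and 1 higher, 33.3% of the list against 13.5% of all tested genes. Over all tested genes, 6.50% were lower at that threshold. The list was chosen with earlier results of these data known, so these shares are a description. The list median was -0.12, and 8 genes had knockout values all below the wildtype values, against 9.58% of all tested genes. Without knockout 1 or wildtype 2, 3 rather than 6 were lower at an unadjusted p under 0.05. The share over all tested genes was then 5.59% and 3.92%. Agap1, a relative of Agap2 that acts in endosomal traffic, was at -0.27 (SE 0.084, adjusted p = 0.214), and Git1, a scaffold of focal adhesions and synapses, at -0.25 (SE 0.082, adjusted p = 0.247). Asap3 went the other way, at 0.37 (SE 0.10, adjusted p = 0.161), with values of 6.89, 7.04 and 6.98 in knockout and 6.77, 6.60 and 6.43 in wildtype. The marker means of amacrine cells, horizontal cells and ciliary epithelium were lower in all 3 knockouts, as given above, and their part in these values was not tested.

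The list of Arf effectors, such as coat proteins and lipid kinases, with golgins counted among them, gave no call in 21 tested genes. It also held no unadjusted p under 0.05. Over all tested genes 0.826% were called either way and 13.5% had an unadjusted p under 0.05. Copb1, a subunit of the COPI coat, was at 0.22 (SE 0.11, limma adjusted p = 0.409) and Mapk8ip3, a motor adaptor, at -0.16 (0.424). Pip5k1b, a lipid kinase, was at -0.20 (0.481) and Golga1, one of the golgins, at 0.15 (0.501). The list median was -0.05. Partners of the exchange factors gave no call in 14 tested genes, with 1 lower and 1 higher at an unadjusted p under 0.05. That is 14.3% of the list, near the 13.5% over all tested genes, and nothing is read from the counts of either list. Cnksr2, a postsynaptic scaffold, was at -0.34 (SE 0.11, adjusted p = 0.220) and Cnksr3 at 0.23 (SE 0.074, adjusted p = 0.241). Grasp, which encodes the cytohesin-binding scaffold tamalin, was at -0.16 (0.370), and Dlg4, the postsynaptic scaffold that binds IQSEC proteins, at -0.16 (0.463). Gphn, the gephyrin gene, was at -0.03 (SE 0.070, adjusted p = 0.909), beside -0.34 for its binding partner Iqsec3.

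**Figure D4:**
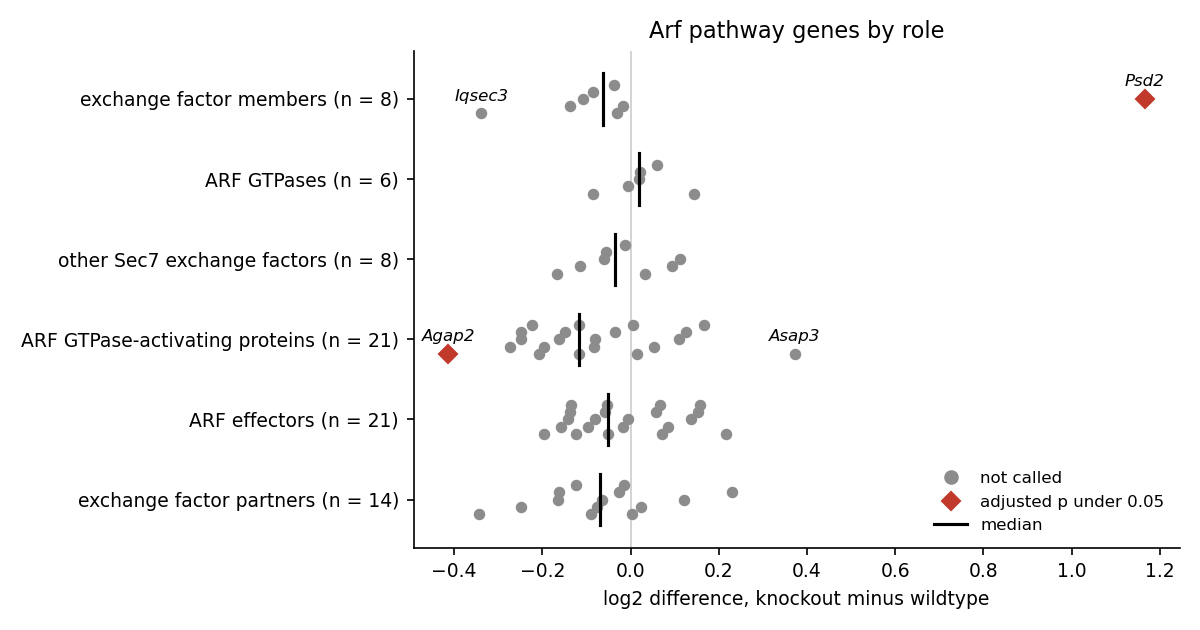
Log2 difference, knockout minus wildtype, of each tested gene in 6 groups by role in the Arf pathway (points), with the group median (bar) and genes called at an adjusted p under 0.05 as red diamonds. Psd2 at 1.17 and Agap2 at -0.41 are the called genes, and the other points lie between -0.34 and 0.37.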

How the data were processed

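Total RNA (100 ng per sample) was hybridised to Affymetrix mouse gene arrays, per the labels' protocols. The values deposited by the authors are log2 expression per probe set, made with RMA (background correction, quantile normalization, probe set summary) per the submitters' processing notes. For its version and the genome build the sources used here give nothing. Quantile normalization hides a change in total RNA, and background compresses differences of dim probe sets. Probe sets with 1 gene symbol (23521) were used. Genes had to reach a log2 value of 5 on 3 or more arrays, and the probe set with the highest mean stood for its gene, which left 15619 genes. The effect of genotype came from limma 3.58.1 (R 4.3.3; lmFit, eBayes, 2-sided, Benjamini-Hochberg over all genes, called under 0.05). Differences are knockout minus wildtype with the moderated SE. The number of arrays limits precision (median SE 0.095), and the labels give each sample as 1 mouse. The procedure was tested on simulated data, drawn from a normal distribution with each gene's own spread. It recovered 46 of 100 genes changed by 0.5 log2 units and 89 of 100 changed by 1, with 6 false calls. Smaller changes can therefore be missed. Members and lists were chosen with earlier results of these data known. Named genes are the 9 members, called list genes and the 4 of smallest p per list, the 5 tested genes on each side of Psd2 and the 8 nearest profiles without unnamed loci. Iqsec2, as a relative, and Gphn, as a partner of Iqsec3, were added outside this rule after their values were seen. The pathway lists hold 74 genes: 70 entered the test, Acap1 and Cytip were below the floor, and Smap1 and Arfip2 are not analysed here. Alternatives were other filters, scalings, spread models, the replicate number as a block, probe set means, a fold of at least 1.5 and arrays left out.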

Additional observations from a re-analysis of the deposited data

How the results depend on the processing

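Over 15 alternatives the log2 difference of Psd2 stayed positive (1.01 to 1.36), and those of Iqsec1, Iqsec3, Cyth1 and Cyth2 stayed negative. The count of called exchange factors was 1 with all other settings, ran from 0 to 1 with single arrays left out, and was 0 without knockout 2 and wildtype 1 together. Of all tested genes, 129 were called; the count was 74 with no filter on dim probe sets, 209 with a log2 floor of 6, 282 with an intensity trend and robust spread, 36 without knockout 2 and wildtype 1, and from 25 to 141 with single arrays left out. The call of Agap2 was the 1 call among pathway genes outside the set, and that count was 0 with no filter, with arrays centred on their median, with a fold of at least 1.5, without knockout 2 and wildtype 1, and with any single array left out (0 in each). No gene next to Psd2 was called under any alternative. With the replicate number as a block 68 genes were called over all genes, 0 pathway genes outside the set and 1 exchange factor. Deviations of same-numbered arrays from their group mean correlated at -0.27, -0.38 and -0.06. These values cannot decide whether the numbers pair the samples. Deviations within a group sum to 0, and knockout 2 and wildtype 1 carry much lens RNA. Fewer arrays or more genes tested lower the counts by construction in part; the other causes were not tested. Signal near background limits Psd4.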
